A study of Danio rerio with 11 samples.

Results

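The genes described here are pou5f3 and 8 members of the SoxB family, sox1a, sox1b, sox2, sox3, sox19a, sox19b, sox21a and sox21b, in single zebrafish embryos. They were chosen by name with earlier results of these data known, and all 9 were found among the 14473 genes of the deposited tables. All 9 also passed the filter on low counts that left 12301 genes for testing. Whole-embryo RNA was sequenced from 6 embryos sorted as mutant (replicates 1, 3, 4, 5, 6 and 7) and 5 sorted as sibling (replicates 2, 3, 4, 7 and 8), 1 library per embryo. The series design gives the cross as an incross of rfx4uw8013/+ fish, rfx4 being a gene for an RFX transcription factor, whereas the growth protocol names parents that were double zic2 heterozygotes. Mutants carry the genotype label rfx4 mutant and siblings the label control. Sorting was by phenotype, and which siblings carried the mutation is not labelled. All embryos were raised at 29 °C to about 25 hours after fertilisation (hpf) without treatment.

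SoxB proteins bind DNA through an HMG box. The SoxB1 proteins (here sox1a, sox1b, sox2, sox3, sox19a and sox19b) are activators that keep neural cells in a progenitor state, and the SoxB2 proteins (here sox21a and sox21b) act mainly as repressors that counter them as neurons form. The gene pou5f3 encodes the zebrafish POU class V factor, a relative of mammalian Oct4. In the early embryo it works with SoxB1 proteins and Nanog when the zygotic genome is switched on, and it later takes part in patterning the midbrain and hindbrain.

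Total counts ran from 16238368 to 21104811 per library. Transcripts of rfx4 were at 32.7 to 54.1 CPM (counts scaled to a library of 1000000) in mutants and at 50.6 to 74.3 CPM in siblings, so the groups overlapped, with mutants 6 and 7 inside the sibling range. For zic2a the mutants were at 53.5 to 107 CPM and the siblings at 78.1 to 86.2 CPM, with mutant 6 the highest embryo. As neither gene set every mutant below the siblings, their RNA is a weak check of the labels. The libraries held the defining transcripts of muscle, blood, epidermis, notochord and neural tube, as whole embryos do. Fewer cells of a type and less RNA per cell cannot be told apart in such samples.

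The SoxB genes covered a wide range of levels, and pou5f3 lay far below all of them. Per transcript length, in TPM (transcript abundance scaled by the authors for gene length and library size), sox3 was at 311 ± 38.0 in siblings (SD, n = 5) and sox19a at 230 ± 21.5. The gene sox2 was at 101 ± 8.41 TPM and sox19b, whose RNA is also laid down in the egg, at 51.0 ± 3.93 TPM. The SoxB2 gene sox21a was at 33.3 ± 3.08 TPM, and sox1b and sox21b were at 21.2 ± 2.92 and 20.5 ± 1.70 TPM. The lowest SoxB gene was sox1a at 14.7 ± 1.74 TPM, and pou5f3 was at 2.04 ± 0.49 TPM. The sibling mean of sox3 was 152 times that of pou5f3.

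The order of these levels was largely shared between embryos. The sibling ranges of sox3 and sox19a overlapped, yet sox3 was above sox19a in 11 of 11 embryos. Neighbours whose order did not hold were sox1b and sox21b, with sox1b the higher in 7 of 11 embryos. The level of sox19b was above that of sox21a in 10 of 11 embryos, mutant 6 being the exception.

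**Figure D1:**
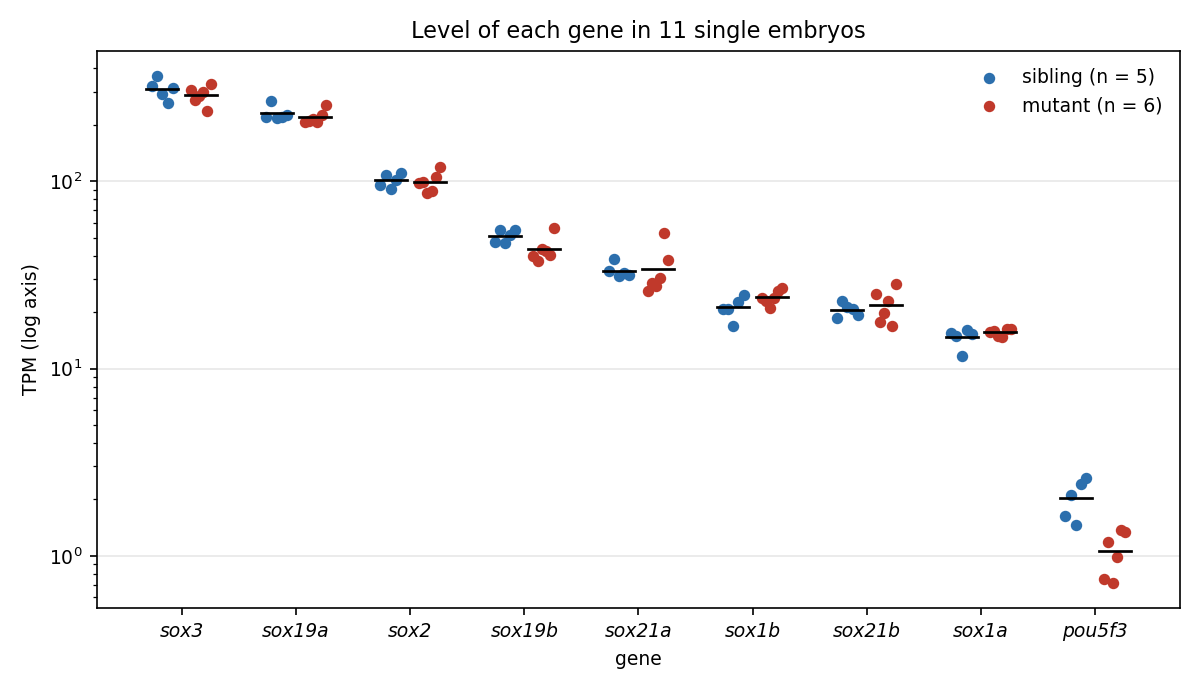
Level of each gene in TPM on a log axis in 5 sibling embryos (blue) and 6 mutant embryos (red), ordered by the sibling mean. Each point is 1 embryo and each bar a group mean. The groups overlap for the 8 SoxB genes, though 5 mutants for sox19b and 4 each for sox19a and sox21a lie below every sibling. For pou5f3 the 6 mutants, at 0.72 to 1.37 TPM, lie below the 5 siblings, at 1.46 to 2.60 TPM.

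Mutants were set against siblings to ask how RNA levels differ with the phenotype. The level of pou5f3 in mutants was 50.6% of that in siblings. Its counts were 21, 34, 19, 26, 36 and 40 in mutants 1, 3, 4, 5, 6 and 7, and 48, 74, 40, 73 and 73 in siblings 2, 3, 4, 7 and 8. As CPM these were 1.17, 1.82, 1.21, 1.53, 2.15 and 2.17 in mutants and 2.58, 3.49, 2.36, 4.06 and 4.14 in siblings. All 6 mutants were thus below all 5 siblings in CPM, which held for 0.488% of the tested genes. The gap at the nearest point was narrow. Mutant 7 and sibling 4 each had 40 counts, with an exact 95% Poisson interval of 28.6 to 54.5 that covers counting error only. They were told apart only by the scaling for total counts and the TMM factor (1.02 in mutant 7 and 0.989 in sibling 4).

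The log2 fold change of pou5f3, mutant over sibling, was −0.98 ± 0.22 (SE), with a 95% interval from −1.45 to −0.51. By edgeR's quasi-likelihood test, with Benjamini-Hochberg adjustment over all tested genes, the adjusted p was 0.254, so the difference did not pass 0.05. That test called 0 of 12301 genes (0%), with 843 (6.85%) at an unadjusted p under 0.05, and pou5f3 ranked 29th by p. DESeq2 called 43 of 13936 genes (0.309%), 23 of them lower in mutants (0.165%), and pou5f3 was among those lower with an adjusted p of 0.0171. The exact two-sided permutation p over all splits of the 11 embryos, unadjusted, was 0.0022, the smallest these splits can give. Groups that do not overlap give a p at or near this floor, so it adds nothing to the separation given above. None of these p values allows for pou5f3 being chosen with its difference already known. The DESeq2 call was lost in 6 of 11 repeats that each left out 1 embryo (mutant 1, 4 or 5, or sibling 3, 7 or 8), with adjusted p from 0.0066 to 0.135. In 11 of 11 the fold change stayed between −1.09 and −0.90.

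Within the mutants, pou5f3 was lowest in mutants 1 and 4 and highest in mutants 6 and 7. The latter are also the 2 mutants with the most rfx4 RNA, at 54.1 and 51.1 CPM against 32.7 to 39.8 CPM in the other 4. Mutants 6 and 7 were likewise the 2 highest mutants in CPM for sox1a, sox1b, sox2, sox21a and zic2a. For sox3, sox19a, sox19b and sox21b they were not, so the match is not particular to pou5f3. Any part of rfx4 level in the pou5f3 values was not tested.

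The 8 SoxB genes showed smaller differences, and neither test called any of them. Fitted values were lower in mutants for 5 and higher for 3, or 4 and 4 with upper-quartile or total-count scaling, which turn sox21a. Their median log2 fold change was −0.03, beside 0.00089 over all tested genes, of which 49.8% had lower fitted values. With 1 embryo left out the median ran from −0.08 (without mutant 7) to 0.02 (without sibling 3), and was also above 0 without mutant 3 or 5. The split then ran from 6 lower and 2 higher to 4 and 4. Adjusted p values ran from 0.711 to 0.995 by edgeR, and the lowest by DESeq2 was 0.676. For each of the 8 the 95% interval of the fold change lay within 1.5-fold in either direction. For 7 of them it included 0, and for sox19b it ran from −0.50 to −0.03.

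**Figure D2:**
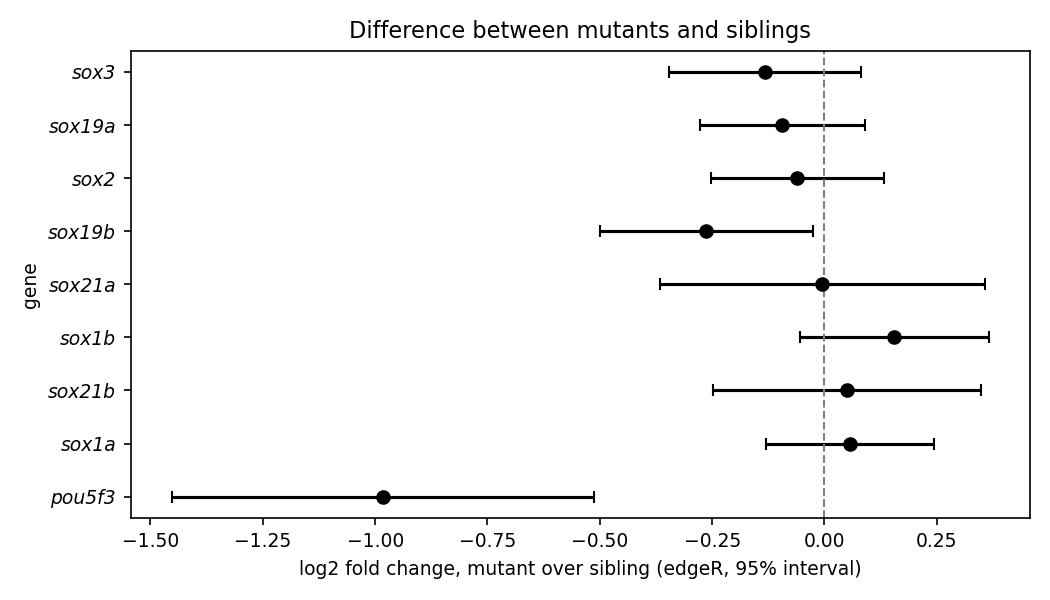
Log2 fold change of each gene, mutant over sibling, from edgeR (points) with its 95% interval (bars), in the order of sibling level. The interval of pou5f3 runs from −1.45 to −0.51, and those of the SoxB genes all lie between −0.50 and 0.37.

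Among the SoxB1 genes, sox3 and sox2 are the broad markers of neural progenitors. The level of sox3 was 323, 364, 293, 261 and 313 TPM in siblings 2, 3, 4, 7 and 8, and ran from 238 to 332 TPM in mutants with a median of 292. The groups overlapped, though mutant 6 lay below every sibling, as did mutant 3 in CPM, and no mutant lay above the highest sibling. The log2 fold change of sox3 was −0.13 ± 0.10 (SE, 95% interval −0.35 to 0.08). The level of sox2 was 95.4, 107, 90.5, 102 and 111 TPM in the same siblings and 86.0 to 119 TPM in mutants with a median of 98.2. Its log2 fold change was −0.06 ± 0.09 (95% interval −0.25 to 0.13), and mutant 7 was the highest of all 11 embryos.

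The sox19 paralogs, which belong to the fish SoxB1 group, were at −0.09 ± 0.08 for sox19a and −0.26 ± 0.11 for sox19b on the log2 scale (SE). The level of sox19b was 39.9, 37.7, 43.3, 42.2, 40.5 and 56.5 TPM in mutants 1, 3, 4, 5, 6 and 7 and 47.1, 54.9, 46.8, 51.4 and 54.7 TPM in siblings 2, 3, 4, 7 and 8. In CPM, 5 of 6 mutants were below the lowest sibling, and mutant 7 was the highest embryo of all. The unadjusted edgeR p was 0.0323, the only one under 0.05 among the 8 genes, and the adjusted p was 0.711. The exact two-sided permutation p was 0.0584. Without mutant 7 the log2 fold change was −0.36 ± 0.08 with an adjusted p of 0.285.

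The sox1 paralogs, known from the lens and from differentiating neurons of the neural tube as well as from progenitors, had slightly higher fitted values in mutants. The log2 fold change was 0.16 ± 0.10 (SE) for sox1b and 0.06 ± 0.09 for sox1a, with 95% intervals of −0.05 to 0.37 and −0.13 to 0.24. Levels of sox1b were 21.2 to 27.1 TPM in mutants and 16.8 to 24.7 TPM in siblings, and those of sox1a 14.7 to 16.3 TPM and 11.7 to 16.1 TPM. Sibling 4 was the lowest embryo for both, and without it the value for sox1a was −0.02.

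For the SoxB2 genes the log2 fold change was −0.0047 ± 0.17 (SE) for sox21a and 0.05 ± 0.14 for sox21b. The level of sox21a was 26.1, 28.6, 27.6, 30.6, 52.6 and 38.1 TPM in mutants 1, 3, 4, 5, 6 and 7 and 33.0, 38.6, 31.1, 32.2 and 31.4 TPM in siblings 2, 3, 4, 7 and 8. Mutants 1, 3, 4 and 5 lay below every sibling, and mutant 6 above every other embryo. Without mutant 6 the log2 fold change of sox21a was −0.17 ± 0.11 (adjusted p = 0.846 by edgeR). For sox21b mutant 6 was instead the lowest embryo, at 16.8 TPM, against 17.6 to 28.3 TPM in the other mutants and 18.5 to 22.8 TPM in siblings. The ratio of sox21a to sox21b in TPM was 3.13 in mutant 6 and 1.04 to 1.78 in the other 10 embryos.

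**Figure D3:**
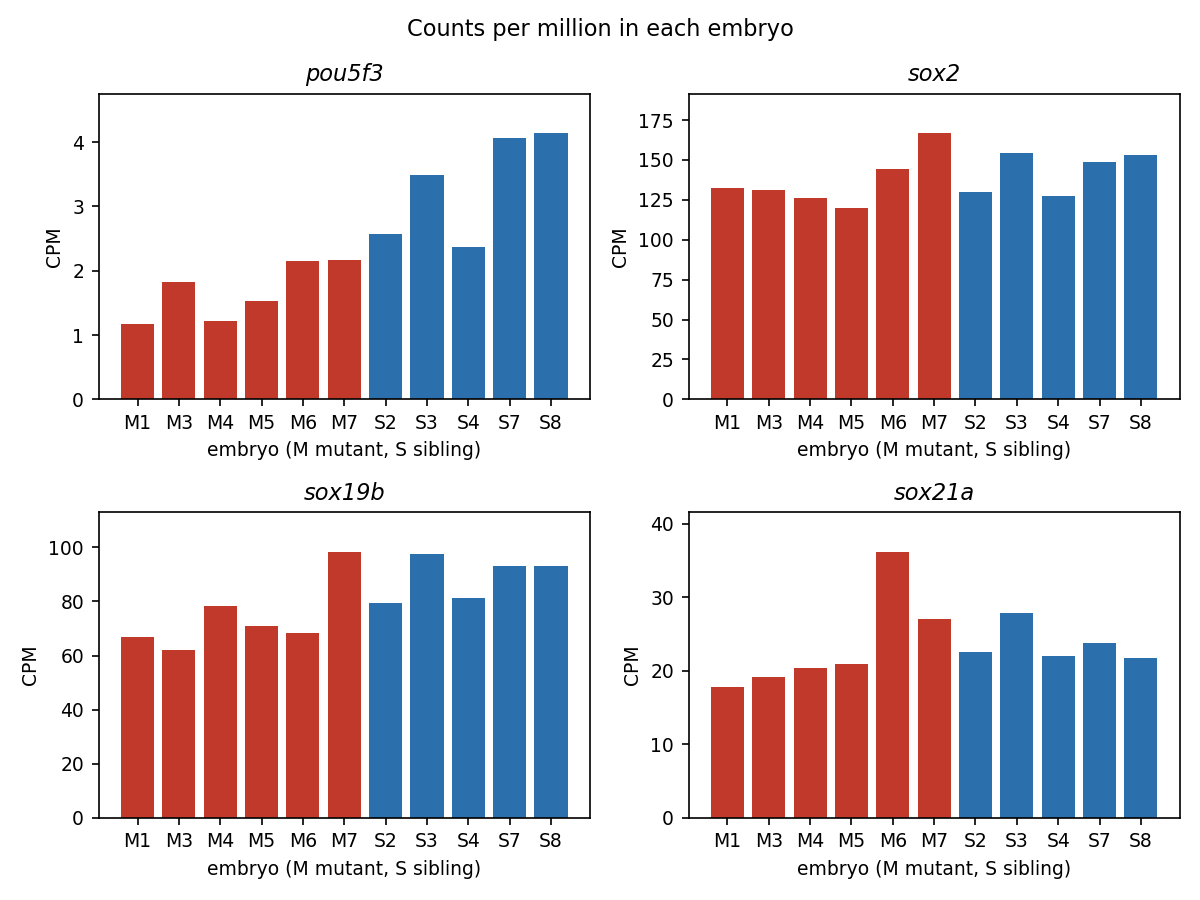
CPM of pou5f3, sox2, sox19b and sox21a in each embryo (M, mutants in red; S, siblings in blue), each panel from 0 on its own scale. For pou5f3 the highest mutant reaches 2.17 CPM and the lowest sibling 2.36 CPM; mutant 7 is the highest embryo for sox2 and sox19b and mutant 6 for sox21a.

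The estimated counts could pass reads between close paralogs, so each pair was also summed. The log2 fold change was 0.11 ± 0.09 (SE) for sox1a with sox1b, −0.13 ± 0.09 for sox19a with sox19b and 0.02 ± 0.11 for sox21a with sox21b, with edgeR adjusted p of 0.821, 0.810 and 0.975.

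The make-up of the SoxB RNA overlapped between the groups. Added over the 8 genes, the level was 747 ± 62.5 TPM over the 6 mutants (SD) and 783 ± 67.7 TPM over the 5 siblings (SD). Mutant 7 and sibling 3 stood out at 872 and 892 TPM, against 705 to 794 TPM in the other 9 embryos. Of this sum, sox3 took 38.7% ± 3.06 in mutants and 39.6% ± 2.21 in siblings, and sox19a 29.5% ± 1.17 and 29.4% ± 0.93. The share of sox2 was 13.3% ± 1.04 and 13.0% ± 0.95. The share of sox19b was 5.78% ± 0.44 in mutants and 6.53% ± 0.44 in siblings. That of sox1b went the other way, at 3.23% ± 0.21 in mutants and 2.72% ± 0.40 in siblings. Mutant 6 differed from the rest in its balance, with the lowest share of sox3, 33.0%, and the highest share of sox21a, 7.31%, against 3.50% to 4.43% in the other 10. The libraries of mutant 6, mutant 7 and sibling 3 also differed most from others of their group (chi-square values under processing). Their standing out is thus not shown to be particular to SoxB genes.

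Set against a SoxB gene in the same embryo, pou5f3 was lower in mutants for each of the 8 genes. The CPM of pou5f3 relative to sox2 was at a mean log2 ratio of −6.33 ± 0.29 in the 6 mutants (SD) and −5.43 ± 0.25 in the 5 siblings (SD). In TPM, pou5f3 was 0.767% to 1.29% of sox2 in mutants and 1.61% to 2.37% in siblings, with no overlap. The difference in mean log2 ratio, mutant minus sibling, was −0.91 for sox2, and the 8 differences ran from −1.13 for sox1b to −0.69 for sox19b. In exact two-sided permutation tests adjusted over the 8 ratios, p was 0.0035 for sox1a, sox1b, sox2, sox19a and sox21a, 0.0144 for sox21b and 0.0152 for sox3 and sox19b. The groups overlapped for sox3, sox19b and sox21b, and did not for the other 5. As pou5f3 alone already separated the groups, and its ratios to the other tested genes were not examined, the 5 cannot be read as a trait of SoxB genes. The 8 ratios share the pou5f3 values and are not separate evidence, and pou5f3 was put beside these genes with its own difference already known.

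**Figure D4:**
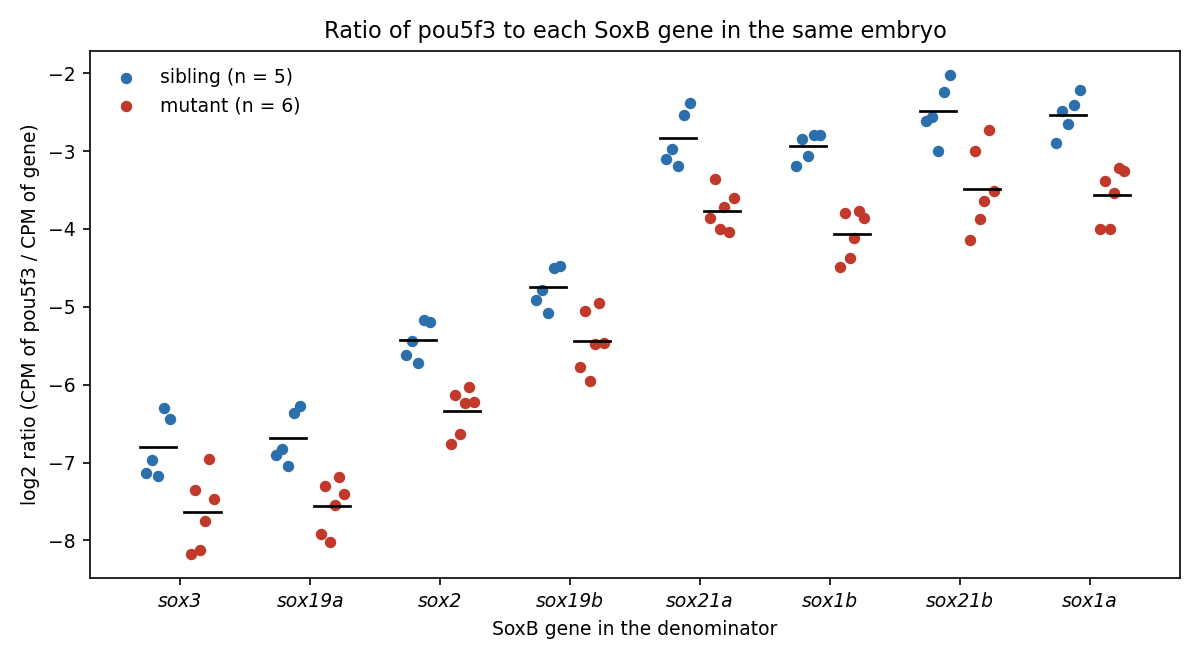
Log2 ratio of the CPM of pou5f3 to that of each SoxB gene in the same embryo, in 5 siblings (blue) and 6 mutants (red), with group means as bars. The mutant mean is lower for every gene, by 0.69 on the log2 scale for sox19b up to 1.13 for sox1b.

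Genes whose pattern over the 11 embryos was nearest to that of pou5f3 were sought by the root mean square difference of log2 CPM, each gene taken from its own mean. The 5 nearest were nkx2.9, a ventral neural homeobox gene (0.29 on the log2 scale), msh3, a DNA mismatch repair gene (0.31), tat, which encodes tyrosine aminotransferase (0.35), fam167ab (0.35) and wnt7aa, which encodes a Wnt ligand (0.35). Of the SoxB genes, sox19b was nearest, at 0.46, 63rd of 12300 genes, and sox21b the farthest, at 0.65, beside a median of 0.62. The 5 nearest genes all had lower fitted values in mutants, at log2 fold changes of −0.78 to −0.53. Their likeness thus includes the difference between the groups. DESeq2 called nkx2.9 (adjusted p = 1.2e-06) and msh3 (adjusted p = 0.0252) lower, and not tat, fam167ab or wnt7aa. By edgeR the adjusted p of nkx2.9 was 0.0659. Over all genes DESeq2 called 0.165% lower, but these 5 were picked for likeness to pou5f3, itself lower. With deviations taken from the group means in place of the overall mean, 0 of the 5 nearest genes were shared.

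The position of the genes was read from the gene order of the RefSeq assembly GRCz12tu, which is not the build of the counts, and only for neighbours. The genes sox19a and sox19b lie in matching surroundings. The first sits between mpdu1a and eif4a1b with senp3a next, and the second between mpdu1b and eif4a1a with senp3b next. None of the 9 genes is among the nearest tested neighbours of another. The gene next to pou5f3, npdc1a, was at 0.06 ± 0.14 (SE) on the log2 scale, and the nearest tested gene on its other side, pnpla7a, at 0.02 ± 0.11. The next tested genes outward were slc31a2, at 0.0062 ± 0.14, and zgc:113162, at −0.38 ± 0.12 (edgeR adjusted p = 0.614).

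Related gene lists were read beside these genes. Of 17 other listed Sox genes, of the SoxC to SoxF families and with sox14 as a further SoxB2 gene (−0.11 ± 0.10 SE), 12 were tested, 9 with higher and 3 with lower fitted values in mutants (median log2 fold change 0.13). The 2 of lowest p were sox11b, a SoxC gene of young neurons, at −0.25 ± 0.08 (SE) and sox6, a SoxD gene, at 0.32 ± 0.12, and neither passed. Of 9 tested POU genes outside class V, 5 had lower and 4 higher fitted values (median −0.13), with the neural class III genes pou3f3b and pou3f2a at −0.27 ± 0.07 and −0.59 ± 0.17. All 5 class III genes had lower fitted values, and neither edgeR nor DESeq2 called any.

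Of 17 tested genes known as partners or early targets of pou5f3, 14 had higher and 3 (nanog, klf2a and vox) lower fitted values (median 0.10), and 0 were called. The Myc gene mych and the RNA-binding gene lin28a were at 0.25 ± 0.09 and 0.23 ± 0.10 (SE), and nanog itself, with a mean under 1 CPM in each group, was at −0.37 ± 0.38. Tail bud genes had higher fitted values in 15 of 16 tested (median 0.14), again with 0 called. The presomitic gene msgn1 was at 0.51 ± 0.13 and the segmentation clock gene her1, whose RNA cycles, at 0.99 ± 0.37. Midbrain-hindbrain boundary genes were split, 8 lower and 7 higher (median −0.06), with the Fgf-feedback genes spry1 and spry4 at 0.49 ± 0.17 and 0.22 ± 0.10.

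The list of other neural progenitor genes, which includes the general cell division genes mki67 and pcna, had a lower median than the SoxB genes. Of 19 tested, 14 had lower fitted values (median −0.14), a number that was 13 and 12 with upper-quartile and total-count scaling. DESeq2 called 2 lower, the radial glia gene fabp7a (−0.49 ± 0.11 SE, adjusted p = 0.0186) and the proneural gene ascl1b (−0.47 ± 0.11, adjusted p = 0.0349), and edgeR 0. Over all genes DESeq2 called 0.165% lower, but the list was chosen with earlier results of these data known. The 5 with higher fitted values, her6, her9, her15.1, dll4 and pax6b, were at 0.04 to 0.06. Of the lower ones, notch1a and pax6a were at −0.0028 and −0.01. Neuronal genes were split 5 and 5 (median −0.03), with stmn2b at 0.33 ± 0.11 and tubb5 at −0.21 ± 0.09. Lens and retina genes were 10 lower and 7 higher (median −0.16), with mipb at −0.64 ± 0.25 and atoh7 at −1.10 ± 0.44, and 0 were called in either list. The RNA of atoh7 was near the floor, at a mean of 0.30 CPM in mutants and 0.64 CPM in siblings.

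**Figure D5:**
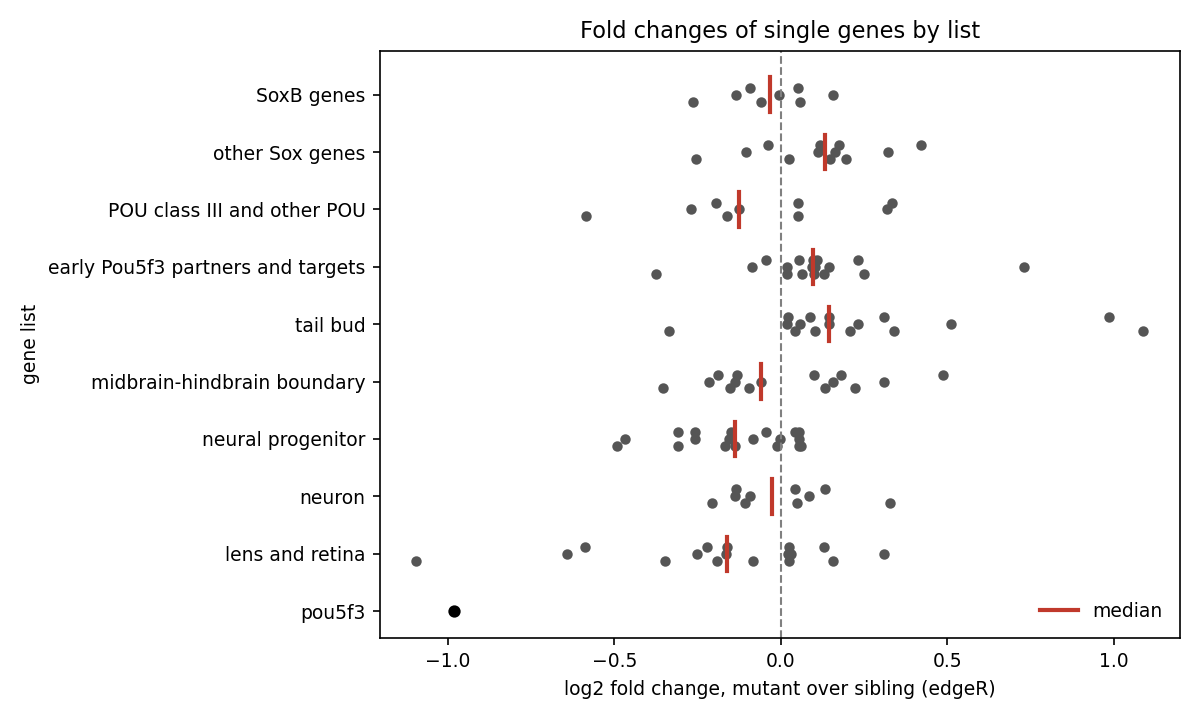
Log2 fold change, mutant over sibling, of every tested gene in the SoxB group, in 8 related lists and of pou5f3; each point is a gene and each red bar a list median. The SoxB genes lie within 0.26 of 0 on the lower side and 0.16 on the upper, tail bud genes lie mostly above 0, and pou5f3 is at −0.98.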

How the data were processed

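The authors deposited estimated counts and TPM values for 14473 genes, 1 column per embryo. RSEM 1.2.18, Bowtie 1.1.1, CASAVA 1.8.2 and build Zv9 are named, per the submitters' processing notes, with no role stated; the annotation is not given in the sources used here. RSEM gives estimated counts, and those deposited were whole numbers. The deposited TPM values are scaled for length and sum to 1000000 per embryo. No batch is labelled. Chi-square per degree of freedom was at least 7.79 in each of the 25 within-group library pairs, beyond sampling noise. It was 32.3 to 73.7 in pairs with mutant 6, mutant 7 or sibling 3, and 7.79 to 25.5 in the other pairs.

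The groups were compared with edgeR 4.0.16 under R 4.3.3 (quasi-likelihood test, TMM, filterByExpr, Benjamini-Hochberg at 0.05). A check on simulated data required few false calls and recovery only of changes larger than those described here. Power at the size of the changes described is not given. SE came from the F statistic. CPM used TMM library sizes, and log2 CPM a prior count of 1. DESeq2 1.42.0, limma 3.58.1, other scalings, filters, TPM and left-out embryos were alternatives. Members and lists were chosen with earlier results of these data known. Besides the 9 genes, rfx4 and zic2a were named, called list members (or the 2 of lowest p), and the 5 genes most like pou5f3. Named after their values were seen were the POU class III set, nanog, and the neighbours npdc1a, pnpla7a, slc31a2 and zgc:113162. Figures used matplotlib 3.10.9.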

Additional observations from a re-analysis of the deposited data

Results flagged for a closer look

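In the siblings, sox19a of sibling 3 lay apart from the rest, at 8.659 log2 CPM against 8.298 to 8.402 in the other 4. Its gap to the nearest sibling was 0.711 of the group's range, just past the critical value of 0.71 for 5 samples. It was the only 1 of 18 groups examined (9 genes in mutants and siblings) to pass, and chance flags about 1 in 20. Sibling 3 also had the highest summed SoxB level, 892 TPM. Its library had the largest chi-square per degree of freedom against other siblings, 49.3 to 69.2.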

How the results depend on the processing

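The number of genes called, 0 by edgeR, was 43 by DESeq2, 2 by limma-voom and 32 by limma-voom with sample weights, and 0 to 24 when 1 embryo was left out (24 without mutant 6, 1 without sibling 7, 0 without any other). The pou5f3 log2 fold change was −0.99 and past 0.05 by DESeq2 (adjusted p = 0.0171); leaving out 1 embryo gave −1.08 to −0.89 by edgeR, with adjusted p of 0.134 to 0.522, and −1.09 to −0.90 by DESeq2, which kept the call without mutant 3 (−1.01), mutant 6 (−1.07), mutant 7 (−1.07), sibling 2 (−1.07) or sibling 4 (−1.09). With sample weights its adjusted p was 0.0853. The TPM values with a pseudocount of 1 gave −0.56, as a pseudocount close to the level itself narrows the difference, and with 0.1 −0.90. A mean count of at least 50 left pou5f3 out. The sign of sox21a turned with upper-quartile scaling (0.0077), total counts (0.023) and summed paralogs (0.020), and with 1 embryo left out it ran from −0.17 to 0.066. Without 1 embryo sox1a ran from −0.016 to 0.11 sox21b from −0.041 to 0.12, sox1b from 0.083 to 0.21, sox2 from −0.12 to −0.023, sox3 from −0.18 to −0.061, sox19a from −0.14 to −0.025 and sox19b from −0.36 to −0.21. No SoxB gene passed under any of these settings. Replicate numbers 3, 4 and 7 occur in both groups, and the labels do not say whether they pair embryos. Deviations of same-numbered embryos correlated at −0.308, −0.195 and −0.144. These 3 values gave no sign of pairing, but so few cannot exclude a shared origin. With the replicate number as a block, edgeR called 0 genes, pou5f3 was at −0.93 (adjusted p = 0.9996) and sox21b at −0.044. That fit draws the group difference only from numbers 3, 4 and 7, so it has little power. Each of the 8 ratios passed 0.05 with other prior counts, TPM values and 1 embryo left out (adjusted p at most 0.0429), though TPM with a pseudocount of 1 narrowed that for sox2 to −0.53. The ratios all carry the pou5f3 values, so their passing is not separate evidence. Adjusting over the 8 does not cover the choice of pou5f3 with its difference known. Over the 3 pairs the mean differences of the ratios were −1.03 for sox1a, −1.12 for sox1b, −0.88 for sox2, −0.84 for sox3, −0.83 for sox19a, −0.70 for sox19b, −0.75 for sox21a and −0.87 for sox21b, each with an exact sign-flip p of 0.25, the smallest 3 pairs allow. Summed paralogs and DESeq2 with embryos left out were added after seeing the data. Depth limits the precision of pou5f3, at 19 to 74 counts per library.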
